A study of Homo sapiens with 6 samples.

Results

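Transcripts of 10 genes of the RNA polymerase I (Pol I) machinery were measured in K562 cells, an established erythroleukemic line derived from chronic myeloid leukemia. The genes were taken by their NCBI Gene identifiers from tables of 25702 identifiers, and all 10 were listed and passed the filter on low counts that left 15431 genes for testing. They were the polymerase subunits POLR1A, POLR1B, POLR1E and POLR1F (formerly TWISTNB), the initiation factor RRN3, the promoter factor UBTF, and TAF1A, TAF1B, TAF1C and TAF1D, the specific subunits of selectivity factor SL1. Cells were transiently transfected by nucleofection with a pCMV-HA plasmid, which was empty (EV) or drove MXD3 or the fusion STIM1::MXD3 from the viral CMV promoter. Each of the 3 groups had 2 libraries, described by the study as independent transfections, and no other treatment was given to any group. In STIM1::MXD3, the start of STIM1 with its signal peptide takes the place of the amino-terminal part of MXD3, which holds its presumed repression domain, while the part of MXD3 that binds DNA is kept. The comparisons asked how each construct changed transcripts against EV and whether the fusion differed from MXD3. The sources used here give no selection of transfected cells before RNA extraction, so a value is an average over cells with and without plasmid, and a change in the share of such cells cannot be told apart from a change per cell.

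Pol I is the nucleolar enzyme that makes the precursor of the large ribosomal RNAs. UBTF coats the ribosomal DNA, SL1 (TBP with the TAF1 proteins) recognizes its promoter, and RRN3 joins Pol I to SL1 so that transcription can start. MYC is known to raise this transcription, both at the ribosomal DNA and through genes for the machinery, and proteins of the MXD family oppose MYC by binding E-box sequences together with MAX. The libraries were enriched for poly A RNA, and the rows for 18S, 28S and 5.8S ribosomal RNA held 0 counts in all 6 libraries. What was measured is therefore the messenger RNA for the machinery and not its product.

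Total counts ran from 53048343 to 63835779 per library, and 29079 to 38566 of these fell on the 10 genes. Levels are given as counts-per-million (CPM) of the library size after scaling by the trimmed mean of M-values (TMM). MXD3 stood at 9.33 and 11.7 CPM in EV, 2523 and 2162 CPM with MXD3, and 1975 and 1849 CPM with STIM1::MXD3, as the labels state. STIM1 was at 471 and 453 CPM with the fusion and between 159 and 205 CPM in the other 4 libraries, and MYC lay between 213 and 241 CPM throughout. All 9 markers expected in K562, among them globins and GATA1, were found at 145 CPM or more. CDKN2A and CDKN2B, which K562 has lost, were at 0 counts in every library, and 5 of 6 markers of other cell types were at 2.83 CPM or less. The exception was the epithelial gene EPCAM, at 77.9 to 101 CPM.

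Levels of different genes were compared per kilobase of exon, with exon lengths from the GRCh37 annotation. On this scale, POLR1E, a subunit that works in initiation and elongation, was the highest, with a mean of 32.8 CPM per kilobase over the 6 libraries (range 30.9 to 35.2). UBTF followed at 21.8 (19.4 to 23.8), and neither range overlapped that of any other member. RRN3 at 10.6 (9.77 to 12.3), TAF1D at 9.67 (7.18 to 13.1) and POLR1F at 9.28 (8.19 to 10.2), all in CPM per kilobase, overlapped each other. RRN3 was above POLR1F in each of the 6 libraries, whereas TAF1D was above both in both EV libraries and STIM1::MXD3 replicate 1 and below both in the other 3. TAF1A had a mean of 6.23 CPM per kilobase, TAF1C 6.06, TAF1B 5.17 and POLR1B 5.0, and these 4 ranges also overlapped. POLR1A, the gene of the largest and catalytic subunit, was lowest in each of the 6 libraries, at 3.74 CPM per kilobase (2.66 to 4.38). Over the 14394 tested genes with a length, the median was 4.30 CPM per kilobase, so that 47.4% of genes lay below POLR1A and 90.7% below POLR1E. Dividing by the longest annotated transcript instead kept POLR1E (36.8 CPM per kilobase) and UBTF (30.9) first and POLR1B (5.97) and POLR1A (5.91) last. By this length POLR1A was no longer the lowest in every library, as POLR1B was below it in some. TAF1D (mean 17.7) was then above RRN3 (11.9) and POLR1F (9.42) in every library. The order of these genes within single libraries thus depended on the length used.

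**Figure D1:**
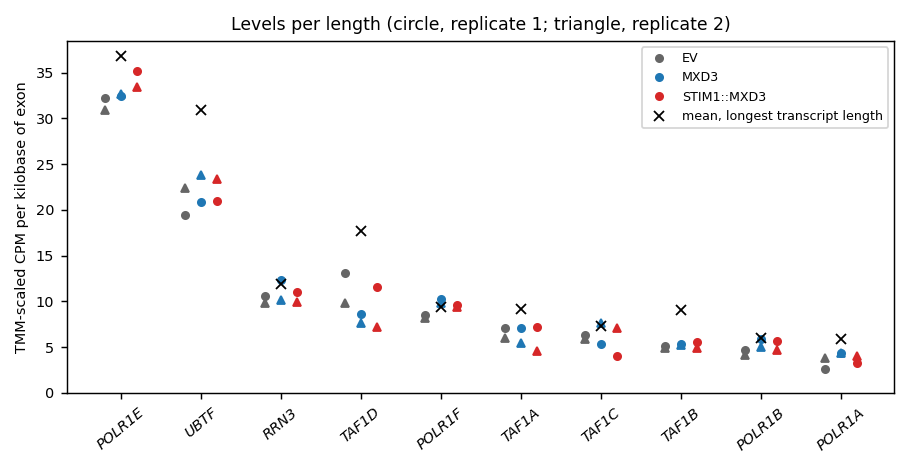
TMM-scaled CPM per kilobase of exon (y axis) for the 10 genes (x axis, ordered by mean), with 1 point per library colored by plasmid, and crosses for the mean over 6 libraries when the longest transcript gives the length. POLR1E (30.9 to 35.2) and UBTF (19.4 to 23.8) stand above the other genes in every library.

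Promoters of the genes were searched for E-boxes because MXD3 belongs to the family that binds them. The windows, from RefSeq on the GRCh38.p14 assembly, run from 250 bases before to 50 bases after the start of a transcript, and 13 windows matched 9 of the 10 genes. POLR1E is named only. The canonical E-box CACGTG, which reads the same on both strands, was found in 0 of the 13 windows, against 7.26% of all 35116 windows in the table and 8.27% of the 23037 windows of genes in the count tables. The noncanonical CACGCG, searched on both strands, was found in 5 of the 13 windows, which belong to POLR1A, RRN3, TAF1C and UBTF, against 11.4% of all windows and 14.3% of those of genes in the count tables. The 5 include overlapping windows of RRN3 that hold the same sites. One window that holds CACGCG is printed for each of these 4 genes, 5′ to 3′ on the strand of the gene. The window of TAF1D, the member with the most negative log2 fold change with MXD3, is printed for comparison. Capitals mark CACGCG, or CGCGTG where it lies on the opposite strand. The windows are chr2:86105837-86106136 for POLR1A, chr16:15094223-15094522 for RRN3, chr16:84187008-84187307 for TAF1C, chr17:44220833-44221132 for UBTF and chr11:93741446-93741745 for TAF1D, all on the minus strand.
POLR1A: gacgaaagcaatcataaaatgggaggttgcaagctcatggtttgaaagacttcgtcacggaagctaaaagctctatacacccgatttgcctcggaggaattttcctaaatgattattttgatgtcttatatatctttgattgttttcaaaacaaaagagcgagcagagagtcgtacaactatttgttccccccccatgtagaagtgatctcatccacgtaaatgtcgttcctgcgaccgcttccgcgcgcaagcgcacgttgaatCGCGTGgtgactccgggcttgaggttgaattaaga
RRN3: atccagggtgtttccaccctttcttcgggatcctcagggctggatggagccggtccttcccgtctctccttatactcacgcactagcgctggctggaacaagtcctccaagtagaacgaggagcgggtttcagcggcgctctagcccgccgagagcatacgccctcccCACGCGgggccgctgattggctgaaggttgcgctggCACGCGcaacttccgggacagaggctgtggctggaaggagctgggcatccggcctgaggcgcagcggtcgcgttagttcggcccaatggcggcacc
TAF1C: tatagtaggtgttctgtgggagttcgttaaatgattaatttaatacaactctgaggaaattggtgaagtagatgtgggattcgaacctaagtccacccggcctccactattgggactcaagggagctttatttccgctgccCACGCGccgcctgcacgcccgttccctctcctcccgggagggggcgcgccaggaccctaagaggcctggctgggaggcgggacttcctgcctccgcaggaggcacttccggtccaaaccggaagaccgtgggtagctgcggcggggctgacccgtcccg
UBTF: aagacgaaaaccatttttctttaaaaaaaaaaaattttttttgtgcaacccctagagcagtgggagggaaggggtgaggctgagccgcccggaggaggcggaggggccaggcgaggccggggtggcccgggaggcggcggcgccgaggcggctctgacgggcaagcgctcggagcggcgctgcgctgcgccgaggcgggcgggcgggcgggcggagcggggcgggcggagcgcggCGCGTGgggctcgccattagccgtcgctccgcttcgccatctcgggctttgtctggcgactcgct
TAF1D: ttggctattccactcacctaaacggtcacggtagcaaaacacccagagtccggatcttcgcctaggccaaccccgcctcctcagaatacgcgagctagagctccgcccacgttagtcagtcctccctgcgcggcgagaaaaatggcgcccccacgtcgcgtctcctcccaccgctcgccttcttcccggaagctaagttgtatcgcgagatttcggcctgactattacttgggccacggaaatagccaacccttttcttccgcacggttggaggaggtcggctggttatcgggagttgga

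Counted from the first transcribed base as 0, the CACGCG of POLR1A began at position 15, inside the transcribed part. In the RRN3 window shown it began at -82 and -46, but counted from a further start of RRN3 the same letters began at -19 and 17, the latter inside the transcribed part. It began in TAF1C at -109 and in UBTF at -15. A further start of UBTF held neither motif. The match is one of letters, and no binding was measured in these libraries.

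The catalytic subunits were described first. POLR1A (Gene ID 25885), on the minus strand of GRCh37 chromosome 2 from 86247339 to 86333278, was at 52.3 and 75.4 CPM in EV, 85.6 and 86.2 CPM with MXD3, and 63.7 and 79.2 CPM with STIM1::MXD3. Both MXD3 libraries lay above the other 4, and EV replicate 1 was the lowest. POLR1B (chromosome 2, 113299492 to 113337395, plus strand), the second-largest subunit, which forms the active center with POLR1A, was at 42.3 and 36.8 CPM in EV, 53.4 and 44.9 CPM with MXD3, and 50.6 and 41.7 CPM with the fusion. Both EV libraries were below both MXD3 libraries, and the fusion libraries overlapped each group.

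The peripheral subunits varied less between libraries than POLR1A and POLR1B. POLR1E (chromosome 9, 37485945 to 37503694, plus strand) was at 80.4 and 77.2 CPM in EV, 81.2 and 81.6 CPM with MXD3, and 87.9 and 83.7 CPM with STIM1::MXD3, so that the fusion libraries were the highest. POLR1F (chromosome 7, 19735084 to 19748660, minus strand), a subunit of the stalk that RRN3 contacts, was at 33.6 and 32.3 CPM in EV, 40.5 and 38.8 CPM with MXD3, and 37.8 and 36.9 CPM with the fusion. The 3 groups of POLR1F did not overlap, with EV lowest and MXD3 highest. Taken pair by pair, MXD3 lay above EV without overlap in 16.2% of all genes and the fusion above EV in 12.0%. The fusion lay below MXD3 in 10.2%. The share of genes with all 3 groups apart was not counted.

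RRN3 (chromosome 16, 15153890 to 15188168, minus strand) was at 43.9 and 40.4 CPM in EV, 51.0 and 41.9 CPM with MXD3, and 45.7 and 41.1 CPM with STIM1::MXD3, with all groups overlapping. Its pseudogenes RRN3P1, RRN3P2 and RRN3P3 held at most 189 counts in a library, although reads that fit more than 1 copy make the split uncertain. UBTF (chromosome 17, 42282401 to 42298994, minus strand) was at 137 and 158 CPM in EV, 148 and 169 CPM with MXD3, and 148 and 165 CPM with the fusion. In each group the second library of UBTF was above the first, and the groups overlapped.

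Of the SL1 subunits, TAF1A (chromosome 1, 222731244 to 222763275, minus strand) was at 20.4 and 17.3 CPM in EV, 20.6 and 15.7 CPM with MXD3, and 20.8 and 13.3 CPM with STIM1::MXD3. TAF1B (chromosome 2, 9983572 to 10074545, plus strand), which resembles the general factor TFIIB, was at 20.3 and 19.3 CPM in EV, 21.3 and 21.0 CPM with MXD3, and 21.9 and 19.4 CPM with the fusion. For TAF1A all groups overlapped, and for TAF1B both MXD3 libraries were above EV. TAF1C (chromosome 16, 84211453 to 84220676, minus strand) was at 35.5 and 32.7 CPM in EV, 29.9 and 42.5 CPM with MXD3, and 22.7 and 39.7 CPM with STIM1::MXD3. TAF1D (chromosome 11, 93463114 to 93517557, minus strand) was at 105 and 78.1 CPM in EV, 68.8 and 61.2 CPM with MXD3, and 92.2 and 57.3 CPM with the fusion. TAF1C and TAF1D had the widest spread by fold within the fusion group, and both MXD3 libraries of TAF1D were below both EV libraries. Counts of TAF1A may include reads of its antisense partner TAF1A-AS1 (43 to 124 counts per library, 109 shared exonic bases) and those of TAF1C reads of DNAAF1 (0 to 11 counts, 450 shared bases), as the use of strand was not given in the sources used here.

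**Figure D2:**
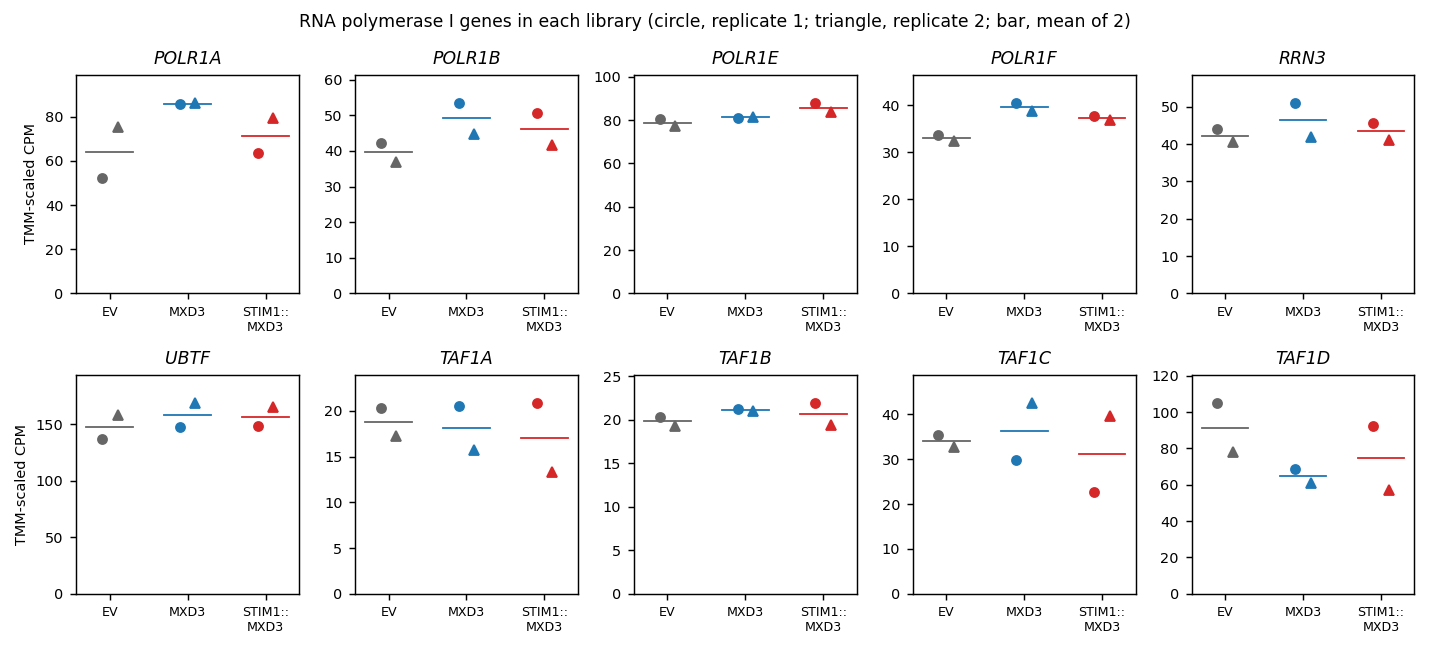
TMM-scaled CPM (y axis, from 0) of each gene by plasmid group (x axis), with a circle for replicate 1, a triangle for replicate 2 and a bar for their mean. POLR1F separates the 3 groups (EV 32.3 to 33.6, MXD3 38.8 to 40.5), whereas TAF1C and TAF1D differ more between the fusion replicates than between group means. The share of all genes that separate the 3 groups was not counted.

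With MXD3 against EV, 8 of the 10 genes had a positive log2 fold change and 2 a negative one, but 0 passed an adjusted p of 0.05 (quasi-likelihood test in edgeR, adjusted over all genes tested by the Benjamini-Hochberg method). The largest positive values were those of POLR1A, at 0.43 ± 0.20 (SE; 95% interval -0.04 to 0.90; 1.35-fold), POLR1B, at 0.31 ± 0.16, and POLR1F, at 0.26 ± 0.12. TAF1D had the most negative, at -0.49 ± 0.25 (interval -1.08 to 0.09; 0.711-fold). The adjusted p-value of edgeR was 0.999 for all of them, with n = 2 per group. RRN3 differed by 0.14 ± 0.15, UBTF by 0.10 ± 0.14, TAF1B by 0.09 ± 0.14, TAF1C by 0.09 ± 0.28, POLR1E by 0.05 ± 0.11 and TAF1A by -0.05 ± 0.25. The median over the members was 0.10, and over all genes tested it was 0.0011, with 50.2% of genes positive. Leaving out 1 library moved the member median between 0.07 (without EV replicate 2) and 0.15 (without MXD3 replicate 1). Those fits had replicate numbers unbalanced between the groups.

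Over all genes 0.00648% were called in this comparison, which is 1 gene, MXD3 itself. By unadjusted p under 0.05, 0 members and 1.86% of all genes passed with edgeR, and DESeq2 called 0 members and 0.0194% of genes. In 5 members, POLR1A, POLR1B, POLR1E, POLR1F and TAF1B, both MXD3 libraries were above both EV libraries, as in 16.2% of all genes. TAF1D was the only member with both below, as in 14.8% of genes.

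The labels do not say that the numbers 1 and 2 pair the libraries across groups. Pairing was inferred because libraries with the same number deviated together in these counts. The comparison was therefore also fitted with the replicate number as a block. In edgeR with the block, POLR1A differed by 0.45 ± 0.11 (adjusted p = 0.0929) and TAF1D by -0.47 ± 0.11 (adjusted p = 0.0778), so that 0 members were called, against 0.292% of all genes. By unadjusted p, 4 members passed 0.05 with the block (POLR1A, POLR1B and POLR1F higher, TAF1D lower), as did 13.9% of all genes. DESeq2 with the block called 2 members, POLR1A at 0.45 (adjusted p = 0.0254) and TAF1D at -0.48 (adjusted p = 0.0141), and 1.57% of all genes. POLR1A was higher in both replicate pairs, by 0.71 and 0.19 on the log2 scale, and TAF1D lower in both, by -0.61 and -0.35. In edgeR without the block, POLR1A and TAF1D were at 0.43 and -0.49 with every library. Without EV replicate 1 they were at 0.19 and -0.26, and without EV replicate 2 at 0.72 and -0.69. Leaving out a library there left the replicate numbers unbalanced between the groups. These values thus also hold the replicate difference and do not give the weight of 1 library in the paired results.

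With STIM1::MXD3 against EV, which shares the EV libraries with the previous comparison, the values of the 10 genes ran from -0.29 to 0.22. POLR1B stood at 0.22 ± 0.16 on the log2 scale, POLR1F at 0.18 ± 0.12, POLR1A at 0.16 ± 0.20 and POLR1E at 0.12 ± 0.11. TAF1D was at -0.29 ± 0.25 (95% interval -0.88 to 0.29), TAF1A at -0.14 ± 0.25 and TAF1C at -0.13 ± 0.28, and UBTF, TAF1B and RRN3 were at 0.09, 0.06 and 0.04. Thus 7 members were positive and 3 negative, with a median of 0.07, beside 0.0096 and 52.1% positive over all genes. Without EV replicate 1 this became 5 and 5 with a median of 0.042, and without STIM1::MXD3 replicate 2 it stayed 7 and 3 with a median of 0.12. The adjusted p was 1.00 for each member (edgeR).

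In this comparison 0 members passed the adjusted threshold in edgeR and 0 had an unadjusted p under 0.05, against 0.00648% and 0.953% of all genes. POLR1E and POLR1F were the 2 members with both fusion libraries above both EV libraries, as in 12.0% of genes, and 0 members had both below, as in 10% of genes. With the replicate block, 0 members were called in edgeR (0.0194% of genes), and POLR1B (higher) and TAF1D (lower) had an unadjusted p under 0.05, against 8.50% of genes. DESeq2 called 0 members with or without the block, against 0.188% and 0.0194% of genes. For POLR1A, dropping EV replicate 1 gave -0.08 and dropping EV replicate 2 gave 0.45. These fits had no block, so the replicate numbers were unbalanced between the groups. Within the replicate pairs POLR1A was higher with the fusion in both, by 0.28 and 0.07 on the log2 scale.

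Between the constructs, 2 members were higher and 8 lower with the fusion than with MXD3, and the median was -0.09, beside 0.0083 over all genes with 52.1% positive. POLR1A was at -0.27 ± 0.20 (95% interval -0.74 to 0.20), TAF1C at -0.21 ± 0.28 and TAF1D at 0.20 ± 0.25, with an adjusted p of 1.00 for each member (edgeR). The remaining 7 ran from -0.10 for RRN3 to 0.08 for POLR1E. No member was called (0 of 10 in edgeR, against 0.00% of all genes), and 0 had an unadjusted p under 0.05, against 1.01%. POLR1A and POLR1F were lower in both fusion libraries than in both MXD3 libraries, as in 10.2% of genes, and POLR1E higher, as in 10.9%. With the block, edgeR called 0 members (0.00648% of genes), and POLR1A alone had an unadjusted p under 0.05 (adjusted p = 0.703), against 6.49% of genes. DESeq2 called 0 members and 0.00648% of genes, and with the block 0 members and 0.0713% of genes, although with the block its independent filtering gave members no adjusted p. The median was 0.00085 without STIM1::MXD3 replicate 2 and -0.0053 without MXD3 replicate 1, with 5 members higher and 5 lower in both cases.

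**Figure D3:**
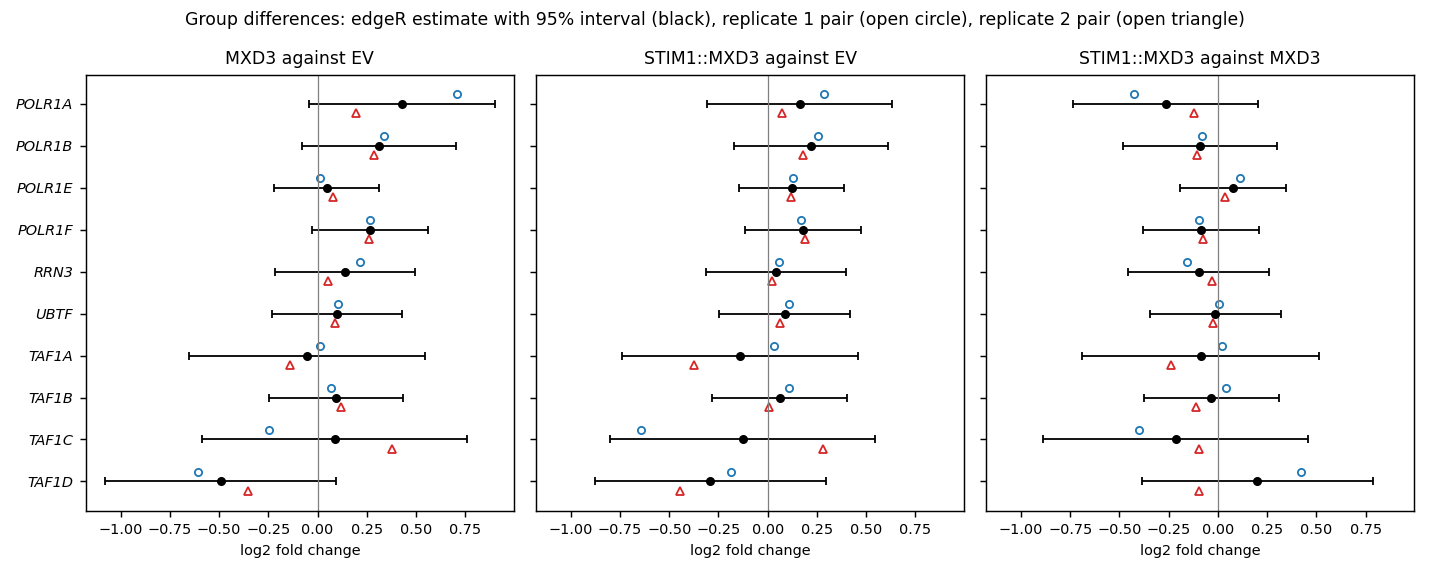
Log2 fold change (x axis) of each gene (y axis) in the 3 comparisons, with the edgeR estimate and its 95% interval in black and the difference within each replicate pair as open symbols. Every interval, from the fit without the replicate block, spans 0, with POLR1A (-0.04 to 0.90) and POLR1F with MXD3 nearest to leaving it out. With the block, not drawn, 4 members left it out with MXD3 against EV, among them POLR1A (0.22 to 0.68) and TAF1D (-0.70 to -0.24). In the fusion against EV 2 members did, and between the constructs 1. These intervals are not adjusted for the number of genes.

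Summed over the 10 genes, the level was 571 and 568 CPM in EV, 600.2 and 602 CPM with MXD3, and 592 and 578 CPM with STIM1::MXD3. Both MXD3 libraries were above the other 4 in this sum.

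Most calls among the 10 genes lay between replicate numbers. That comparison set 3 libraries against 3, whereas each comparison of plasmids set 2 against 2. The counts of calls are therefore not on equal terms and do not rank the sizes of the differences. In the fit with group and replicate number, 6 of 10 members differed between replicate 2 and replicate 1 (adjusted p under 0.05, edgeR), against 29.2% of all genes. Of these, 3 were higher in replicate 2 (13.1% of genes) and 3 lower (16.1% of genes). POLR1A was higher by 0.28 ± 0.09 on the log2 scale (adjusted p = 0.0257), UBTF by 0.18 ± 0.07 (adjusted p = 0.0457) and TAF1C by 0.40 ± 0.13 (adjusted p = 0.0287). TAF1D was lower by -0.43 ± 0.09 (adjusted p = 0.00212), TAF1A by -0.42 ± 0.11 (adjusted p = 0.00956) and POLR1B by -0.24 ± 0.08 (adjusted p = 0.0290). RRN3 was at -0.19 ± 0.08 (adjusted p = 0.0984), and POLR1E, POLR1F and TAF1B were between -0.09 and -0.04.

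Directions among the SL1 subunits therefore parted, with TAF1A and TAF1D lower and TAF1C higher in replicate 2. The value of TAF1C was uneven, at -0.12 in EV, 0.50 with MXD3 and 0.81 with STIM1::MXD3, and this difference between groups was not tested. All 3 libraries of replicate 2 were above all of replicate 1 for UBTF (18.0% of genes), and all were below for RRN3 and TAF1A (20.6% of genes). When 1 library was left out, its partner stood alone in its plasmid group and no longer informed the replicate difference. The 6 such fits thus left out each of 3 pairs, and the 2 fits of a group are not separate checks. TAF1D ran from -0.54 to -0.28 in them, TAF1A from -0.52 to -0.29 and POLR1B from -0.27 to -0.21. UBTF ran from 0.17 to 0.21, POLR1A from 0.16 to 0.43 and TAF1C from 0.19 to 0.65. POLR1A was at 0.16 without either EV library and at 0.43 without either MXD3 library, and TAF1C at 0.65 without either EV library. TAF1C was at 0.19 without STIM1::MXD3 replicate 1 and 0.21 without replicate 2 of that group, and TAF1D at -0.28 without the latter. Without STIM1::MXD3 replicate 1, 1 member was called and 2580 genes in all, compared with 4499 genes with every library. Without STIM1::MXD3 replicate 2, 3 members and 2902 genes were called, and without EV replicate 1, 3 members and 4424 genes.

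The K562 markers moved with the replicate number as well. All 9 were lower in replicate 2, with a median of -0.26, and 7 were called, against 16.1% of all genes called lower. HBZ (-0.90 ± 0.07) and HBG1 (-0.76 ± 0.07) had the most negative values. The summed level of the 9 markers was 8610 to 9718 CPM in the libraries of replicate 1 and 6943 to 7801 CPM in those of replicate 2. The part of this shift in the members' values was not tested, and what the replicate number stands for is not given in the sources used here.

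**Figure D4:**
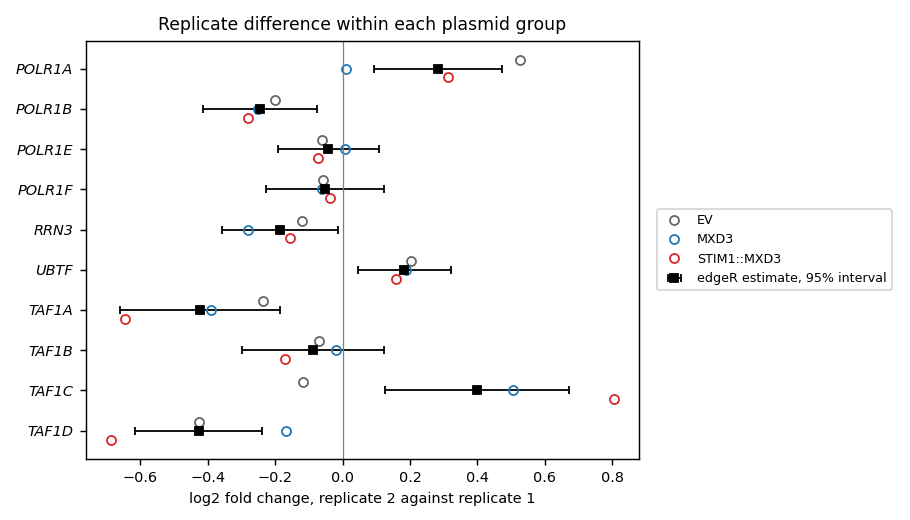
Log2 fold change of replicate 2 against replicate 1 (x axis) for each gene (y axis), with the edgeR estimate and 95% interval as black squares and the difference within each plasmid group as open circles. TAF1C runs from -0.12 in EV to 0.81 with STIM1::MXD3, whereas UBTF stays between 0.16 and 0.20.

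TAF1D, lower in replicate 2, is also the host of small RNA genes. The GRCh37 annotation places 9 of them on its strand within the gene: the small nucleolar RNAs SNORA25, SNORA32, SNORD6, SNORA1, SNORA8, SNORD5, SNORA18 and SNORA40, which guide chemical modification or processing of ribosomal RNA, and the microRNA MIR1304. These rows were named after their values were seen. Each was lower in replicate 2, with log2 values from -1.62 to -0.58 and a median of -1.16. In edgeR 7 of these 9 rows were called, against 16.1% of all genes called lower. Together the 9 rows held 2104 and 1191 counts in EV, 1807 and 938 with MXD3, and 1604 and 811 with the fusion. Per 100 counts of TAF1D this was 39.4 and 25.2, 40.9 and 27.3, and 31.7 and 22.5 in the same order. The counts of these rows thus differed between replicates by more than TAF1D did in each group. Mature RNAs of this kind have no poly A tail, and reads in their rows may come from the TAF1D transcript, from which the counts do not separate them.

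On the opposite strand, CEP295 (250 exonic bases shared) and MED17 (88 shared) were higher in replicate 2, by 0.28 ± 0.09 and 0.27 ± 0.09 (adjusted p = 0.0223 and 0.0373, edgeR). The third such neighbor, C11orf54, was at -0.17 ± 0.08 (adjusted p = 0.125). The direction in TAF1D was thus not that of CEP295 and MED17.

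**Figure D5:**
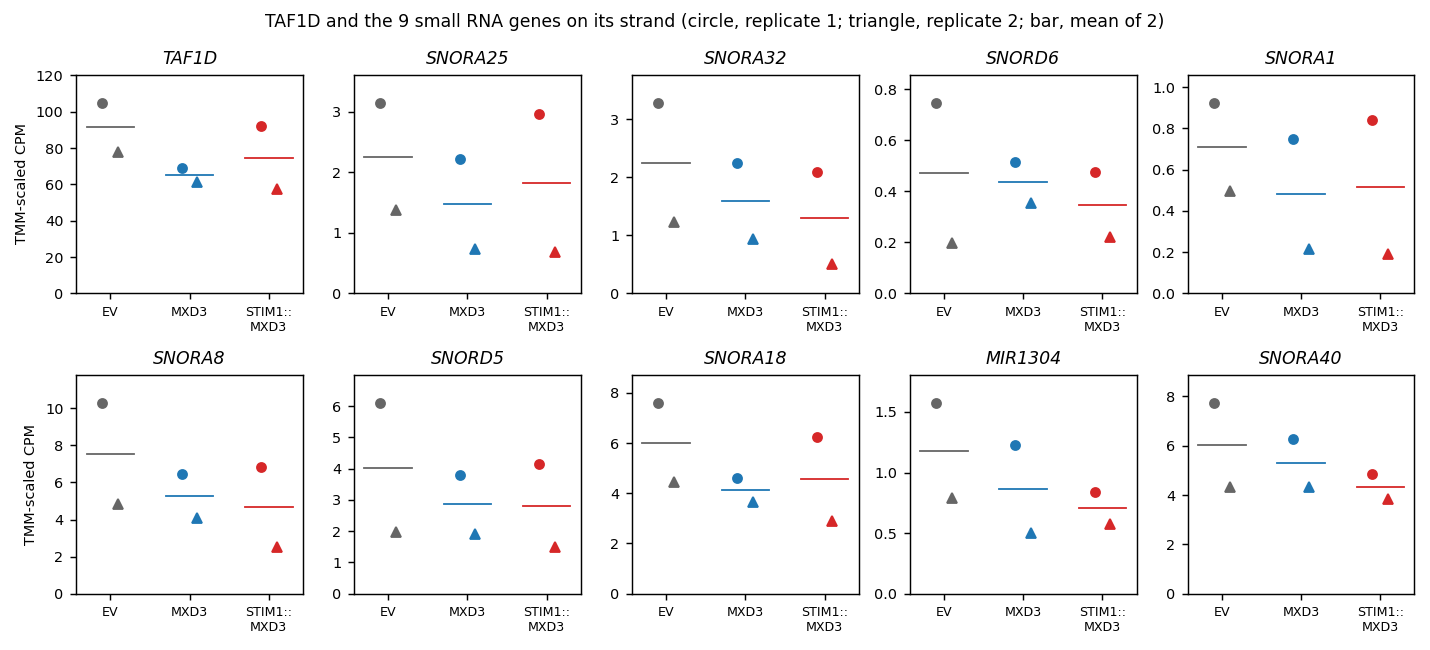
TMM-scaled CPM (y axis, from 0, scaled per panel) of TAF1D and the 9 small RNA rows on its strand by plasmid group (x axis), with a circle for replicate 1, a triangle for replicate 2 and a bar for their mean. In all 3 groups the triangle lies below the circle in each of the 10 panels.

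The remaining genes of the pathway were taken from lists. Of 10 other subunits of Pol I and SL1, several of which Pol II and Pol III also use, 9 were tested and POLR1H was not because of low counts. In edgeR 0 of the 9 were called in any plasmid comparison, with or without the block, against at most 0.292% of all genes. Their medians were 0.07 with MXD3 against EV (6 positive, 3 negative), 0.09 with STIM1::MXD3 against EV (6 and 3) and 0.06 between the constructs (7 and 2). POLR1G, the partner of POLR1E, was at 2.12 and 2.86 CPM in EV, 4.20 and 6.52 CPM with MXD3, and 2.35 and 5.36 CPM with the fusion. Its difference with MXD3 was 1.10 ± 0.44 (unadjusted p = 0.0404, adjusted p = 0.999, edgeR), and with the block the adjusted p was 0.0602. POLR1G shares 1593 exonic bases with ERCC1 on the opposite strand, so the assignment of its few reads is uncertain. With the replicate number, 4 of the 9 were called, against 29.2% of all genes (13.1% higher and 16.1% lower). POLR1C (0.33 ± 0.09), POLR1G (0.75 ± 0.19) and POLR2F (0.41 ± 0.09) were higher and TBP, the shared subunit of SL1, lower (-0.31 ± 0.08).

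Of 16 factors of ribosomal DNA chromatin and transcription termination, 0 were called between plasmids in edgeR. The medians were 0.14 with MXD3 (12 positive, 4 negative), 0.04 with STIM1::MXD3 (10 and 6), both against EV, and -0.09 between them (3 and 13). BAZ2A, a subunit of the complex that silences ribosomal DNA, was at 322 and 302 CPM in EV, 332 and 278 CPM with MXD3, and 282 and 235 CPM with the fusion. Its difference between the constructs was -0.24 ± 0.15 (adjusted p = 1.00, edgeR). By replicate number 8 of 16 were called, against 29.2% of all genes. TTF1 (0.35), TCOF1 (0.27), NCL (0.23), CAVIN1 (0.40), DDX11 (0.36) and NOP53 (0.27) were higher in replicate 2 and BAZ2A (-0.21) and TOP1 (-0.30) lower.

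The UtpA complex, which binds the nascent ribosomal RNA precursor, had all 6 genes positive with both constructs against EV, with medians of 0.14 with MXD3 and 0.16 with STIM1::MXD3, and 0 called in edgeR. Of all genes, 50.2% and 52.1% were positive in these comparisons, which share the EV libraries. UTP15 was at 17.0 and 18.1 CPM in EV, 23.2 and 20.9 CPM with MXD3, and 21.4 and 20.6 CPM with the fusion, a difference with MXD3 of 0.33 ± 0.15 (unadjusted p = 0.0575, edgeR). UTP4 was at 92.5 and 97.9 CPM in EV, 102 and 104 CPM with MXD3, and 108 and 113 CPM with the fusion, which was 0.22 ± 0.11 above EV (unadjusted p = 0.0925, edgeR). Between the constructs the median of the 6 was 0.01, with 3 positive and 3 negative. By replicate number 0 of 6 were called in edgeR, against 29.2% of all genes, and 0 of 6 had an unadjusted p under 0.05.

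Of the machineries of the other polymerases, 10 Pol III subunits had medians of 0.13 with MXD3 (9 positive, 1 negative) and 0.15 with STIM1::MXD3 (8 and 2) against EV, and 0 were called in edgeR. POLR3C was at 39.3 and 39.2 CPM in EV, 40.8 and 45.1 CPM with MXD3, and 46.2 and 48.7 CPM with the fusion, which was 0.27 ± 0.13 above EV (unadjusted p = 0.0672, edgeR). For 10 Pol III factors the medians were 0.03 and 0.00 (6 and 4 with MXD3, 5 and 5 with the fusion). BDP1, a subunit of TFIIIB, was at 62.8 and 75.7 CPM in EV, 81.6 and 78.5 CPM with MXD3, and 63.6 and 64.2 CPM with the fusion, and between the constructs it differed by -0.33 ± 0.13 (unadjusted p = 0.0461, adjusted p = 1.00, edgeR). For 7 Pol II subunits the medians were -0.06 with MXD3 (3 and 4) and -0.00 with the fusion (3 and 4). Between the constructs the medians were -0.00, 0.01 and 0.07 in these 3 lists, and 0 genes were called. By replicate number, edgeR called 2 of 10 Pol III subunits, 2 of 10 Pol III factors and 2 of 7 Pol II subunits, against 29.2% of all genes. Among these, POLR3GL (0.44), GTF3C6 (0.38) and POLR2D (0.48) were higher and GTF3A (-0.45) and POLR2C (-0.32) lower. Of the genes listed as checks, the edgeR fit with the block called MXD3 with both constructs (7.80 and 7.50 against EV), STIM1 with the fusion (1.29 against EV) and HBZ with MXD3 (0.40, adjusted p = 0.0482).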

How the data were processed

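RNA of 6 libraries of K562 cells (EV, MXD3 and STIM1::MXD3, 2 each) was enriched for poly A RNA and sequenced as read pairs. The authors deposited raw counts per gene under NCBI Gene identifiers, made on hg19 with HISAT2 2.2.1 and featureCounts 2.0.1 according to the submitters' processing notes. The annotation, the use of strand and the counting of pairs are not given in the sources used here. Among genes with 1 to 39 counts, 59.8% to 67.3% of counts were even, so both ends of some pairs may have been counted, and counts divided by 2 and rounded up were tried as well. Symbols were matched for 23696 of 25702 identifiers (92.2%) through RefSeq, and unmatched rows held 0.225% to 0.277% of counts and were kept in library sizes.

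Genes were kept with filterByExpr (15431), scaled with TMM and tested two-sided with edgeR 4.0.16 (quasi-likelihood F test; R 4.3.3) in 1 fit over all libraries, with Benjamini-Hochberg adjustment over all genes and a threshold of 0.05. Log2 values within a pair used a prior count of 2. Replicate 2 was compared with replicate 1 in a fit with group and replicate number. P-values of the plasmid comparisons without the block rest on the spread between 2 transfections of 1 cell line. With the block, and for replicate 2 against replicate 1, they rest on the spread left after group and replicate number. In each fit edgeR also borrows the spread across genes. Libraries with the same number deviated together from the means of their groups, with r across genes of 0.267 (EV and MXD3), 0.362 (EV and STIM1::MXD3) and 0.450 (MXD3 and STIM1::MXD3), and 0.621, 0.707 and 0.792 over the 10250 genes with a mean of at least 5 CPM. The numbers were therefore taken to pair the libraries. The other settings were DESeq2 1.42.0, other size factors, no filter, the block, only the 4 libraries compared and leaving out each library.

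Exon lengths and coordinates came from GENCODE for GRCh37, and promoters from RefSeq. Named were all 10 members in every comparison, from the lists of polymerase subunits and factors each gene called with or without the block (except 1 call in the replicate comparison, which is not reported here), and the 2 genes with the smallest p-value per plasmid comparison. Check genes are given mainly by level. The members and lists were chosen with earlier results of these data known. No set test was run.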

Additional observations from a re-analysis of the deposited data

How the results depend on the processing

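With every library kept, all 250 member values under the other settings kept their direction, and 238 of the 240 with an adjusted p kept their side of the threshold. The exceptions were POLR1A and TAF1D with MXD3 against EV, which DESeq2 with the replicate block called (0.45 and -0.48), making 2 Pol I members called there. The block in edgeR changed no call of a member, and gave member medians of 0.07 for the fusion and 0.10 for MXD3 against EV, and -0.09 between the constructs. The count of all genes called with STIM1::MXD3 against EV was 1, and became 2 without a filter, 3 with DESeq2, 3 with the block and 29 with DESeq2 and the block (8 higher, 21 lower). With MXD3 against EV it was 1, and became 3 with DESeq2, 45 with the block (16 higher, 29 lower) and 243 with DESeq2 and the block (91 higher, 152 lower). Between the constructs it was 0, and became 1 without a filter, with DESeq2 or with the block, and 11 with both, all higher. The cause was not tested. Leaving out 1 library at a time, with the lone library assumed to vary like the others, turned the direction of some member values. In the plasmid comparisons these fits had no replicate block, so the replicate numbers were unbalanced between the groups. With STIM1::MXD3 against EV, values ran from -0.075 to 0.45 for POLR1A, -0.037 to 0.11 for RRN3, -0.012 to 0.19 for UBTF, -0.50 to 0.14 for TAF1A, -0.026 to 0.14 for TAF1B, -0.59 to 0.22 for TAF1C and -0.67 to 0.0055 for TAF1D. With MXD3 against EV, they ran from -0.0097 to 0.21 for UBTF, -0.25 to 0.12 for TAF1A and -0.20 to 0.33 for TAF1C, and 1 to 2 genes were called in all. Between the constructs, the member median ran from -0.12 to 0.00085, POLR1B from -0.24 to 0.033, RRN3 from -0.22 to 0.036, UBTF from -0.12 to 0.095, TAF1A from -0.45 to 0.19, TAF1B from -0.12 to 0.041, TAF1C from -0.69 to 0.13 and TAF1D from -0.18 to 0.50. For replicate 2 against replicate 1, 1 to 4 members and 2580 to 4424 genes were called.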
